A study of Homo sapiens with 18 samples.

Results

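HT29 is a human colon cancer cell line with an activating mutation in the kinase BRAF, and PLX4720 is a small-molecule inhibitor that favours mutant BRAF. The comparison reported here asks how the effect of PLX4720 on HT29 gene expression differed between day 8 and day 3. It was taken as (PLX4720 day 8 minus DMSO day 8) minus (PLX4720 day 3 minus DMSO day 3), the treatment-by-time difference, and it rests on 8 of the 18 arrays of the series. The members were all genes detected on 2 or more HT29 arrays, which left 12675 of 20044 genes with a named probe.

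All cultures were grown in Matrigel, a basement membrane gel, and HT29 received DMEM with 10% FCS. The 4 groups were HT29 with 3 µM PLX4720 at day 8, HT29 with the solvent DMSO at day 8, HT29 with 3 µM PLX4720 at day 3 and HT29 with DMSO at day 3, each with 2 arrays from biological duplicates. Treatment began on the fifth day in the gel, and the day labels are read here as days of treatment because the labels also give a day 1. The model is a single established line, and nothing in the labels says whether the 2 cultures of a group were set up on separate occasions. The DMSO cultures grew over the same days, so every change of the drug effect can come from either arm. The HT29 day 1 arrays (4) and the Colo-205 arrays (6, 1 per group) do not enter the contrast.

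All HT29 arrays came from 1 BeadChip. Between 38.3% and 41.4% of the 47323 probes were detected per array across the series, and the 2 arrays of each of the 4 groups correlated at 0.986 to 0.991 over the genes tested. The label of a colon epithelial line was borne out, since all 10 colon epithelial markers passed the detection filter. Of 15 markers of blood, endothelial, stromal and glial cells, 5 passed the filter (CD68, CD14, DCN, LUM and ACTA2), and none of these 5 passed the test of the treatment-by-time difference. The markers at background included PTPRC, PECAM1, VWF, CDH5, COL1A1, COL1A2 and COL3A1.

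BRAF signals through MEK and ERK, and active ERK raises transcription of feedback genes such as DUSP6 and SPRY4 and of growth regulators such as MYC, which in turn drives ribosome production. Cells that run short of oxygen stabilise hypoxia-inducible factors, which bind a short core motif and induce glycolytic enzymes, VEGFA and their own negative regulator EGLN3. Interferon signalling activates transcription factors that bind the interferon-stimulated response element and induce antiviral genes and the machinery that presents peptides on HLA class I. Colon epithelial cells divide in the crypt and mature into absorptive, goblet and enteroendocrine cells.

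The drug effect differed between the days for 1072 of 12675 genes, which is 8.46% of those tested (limma, two-sided, Benjamini-Hochberg adjusted p under 0.05). The treatment-by-time difference was positive for 449 genes (3.54%) and negative for 623 genes (4.92%). The median over all genes was -0.02 log2 units, the median standard error of a difference was 0.25, and 3155 genes had an unadjusted p under 0.05. Scaling the arrays to a common median in place of quantile normalization gave 296 positive and 689 negative differences, so 69.9% of calls were negative against 58.1% here. With 2 arrays per group the count leaned on single arrays. It was 451 and 481 without the first or the second PLX4720 day 8 array, 1281 and 605 without the first or the second DMSO day 8 array, 526 and 458 without the first or the second PLX4720 day 3 array, and 440 and 617 without the first or the second DMSO day 3 array. Every gene past the threshold had the same sign in both replicate numbers, and no gene called both here and without any 1 of these arrays changed sign. The genes were selected on these same arrays, so both outcomes were largely fixed by the selection and are no further support.

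Most of the movement lay in the DMSO arm. Between day 3 and day 8 fewer genes passed in the PLX4720 cultures, where 154 rose (1.21%) and 162 fell (1.28%). Over the same days 2326 genes rose (18.4%) and 2044 fell (16.1%) in the DMSO cultures. An unadjusted p under 0.05 (limma) was found for 2019 genes in the PLX4720 arm and 5645 in the DMSO arm. Each arm was adjusted on its own, so the counts of calls do not share a cutoff and overstate how still the PLX4720 arm was. Over all genes tested, the median absolute change was 0.19 log2 units in the PLX4720 arm and 0.37 in the DMSO arm. For the 1072 genes past the threshold these medians were 0.21 in the PLX4720 arm and 1.11 in the DMSO arm. The count of changed genes in the PLX4720 arm was 67 and 38 without the first or the second PLX4720 day 8 array, 57 and 52 without the first or the second PLX4720 day 3 array, and 207 without either DMSO day 3 array. In the DMSO arm the total of 4370 became 2621 without the first DMSO day 3 array. The plot of the changes in both arms shows the 1072 genes spread along the DMSO axis.

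**Figure D1:**
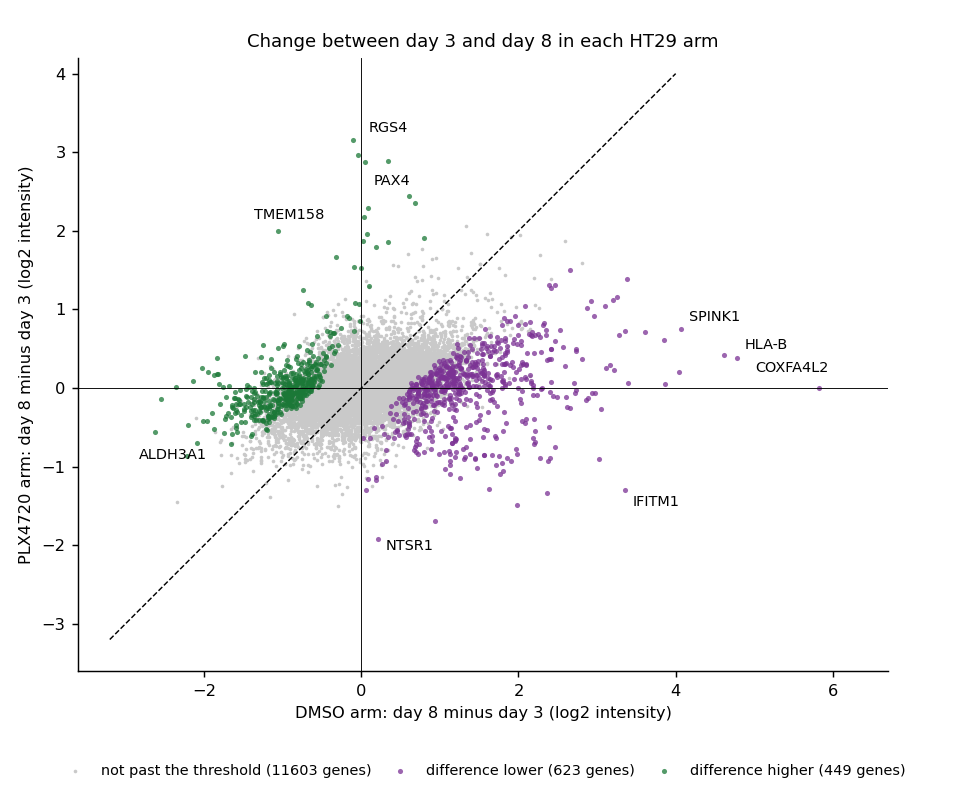
Change between day 3 and day 8 in the PLX4720 arm (vertical axis, log2 intensity) against the change in the DMSO arm (horizontal axis, log2 intensity) for 12675 genes. Each point is a gene, purple marks the 623 genes with a negative and green the 449 genes with a positive treatment-by-time difference, and the dashed line marks equal change; the coloured points reach 5.82 on the DMSO axis and 3.16 on the PLX4720 axis.

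Divided by which arm passed its own test, 31 of the 1072 genes (2.89%) changed in the PLX4720 arm alone, 948 (88.4%) in the DMSO arm alone, 71 (6.62%) in both arms and 22 in neither. A call missed in one arm does not show that the arm stood still, so the genes were also divided by size. The PLX4720 change was over 2 times the DMSO change for 37 genes (3.45%), the DMSO change was over 2 times the PLX4720 change for 910 genes (84.9%), and 125 genes (11.7%) lay between. Of the 623 negative differences, 42 went with a fall in the PLX4720 arm and 602 with a rise in the DMSO arm. Of the 449 positive differences, 29 went with a rise in the PLX4720 arm and 415 with a fall in the DMSO arm. The count for the PLX4720 arm alone fell to 12 without the second PLX4720 day 8 array and to 15 without the second PLX4720 day 3 array, and it was 18 without the first array of either of these groups. The count for the DMSO arm alone was 413 and 454 without the first or the second PLX4720 day 8 array, 1144 and 511 without the first or the second DMSO day 8 array, 484 and 423 without the first or the second PLX4720 day 3 array, and 373 and 543 without the first or the second DMSO day 3 array. The count for both arms fell to 8 without either PLX4720 day 8 array, and to 11 and 9 without the first or the second PLX4720 day 3 array.

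At day 3 the drug effect passed the test upward for 1135 genes (8.95%) and downward for 954 (7.53%), and at day 8 for 930 upward (7.34%) and 1093 downward (8.62%). Within the 1072 genes, 91 had a negative effect at day 8 and a positive one at day 3, and 32 had a positive effect at day 8 and a negative one at day 3. A positive effect at day 3 that did not pass at day 8 was found for 187 genes, and a negative effect at day 3 that did not pass at day 8 for 200. An effect that passed only in the day 8 test was positive for 152 genes and negative for 254. The effect passed in the same direction on both days for 41 genes with a positive and 46 with a negative effect. Of the 41 positive ones 22 were larger and 19 smaller at day 8, and of the 46 negative ones 42 were further below 0 and 4 closer to 0 at day 8. The remaining 69 genes passed neither day's test. The 91 genes that turned downward became 51 and 65 without the first or the second PLX4720 day 8 array, 35 and 37 without the first or the second PLX4720 day 3 array, and 38 and 34 without the first or the second DMSO day 3 array. The 32 genes that turned upward became 9 and 10 without the first or the second PLX4720 day 8 array, 54 and 22 without the first or the second DMSO day 8 array, 14 and 6 without the first or the second PLX4720 day 3 array, and 6 and 12 without the first or the second DMSO day 3 array. The plot of the effects on the 2 days shows both groups of turned genes in their quadrants.

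**Figure D2:**
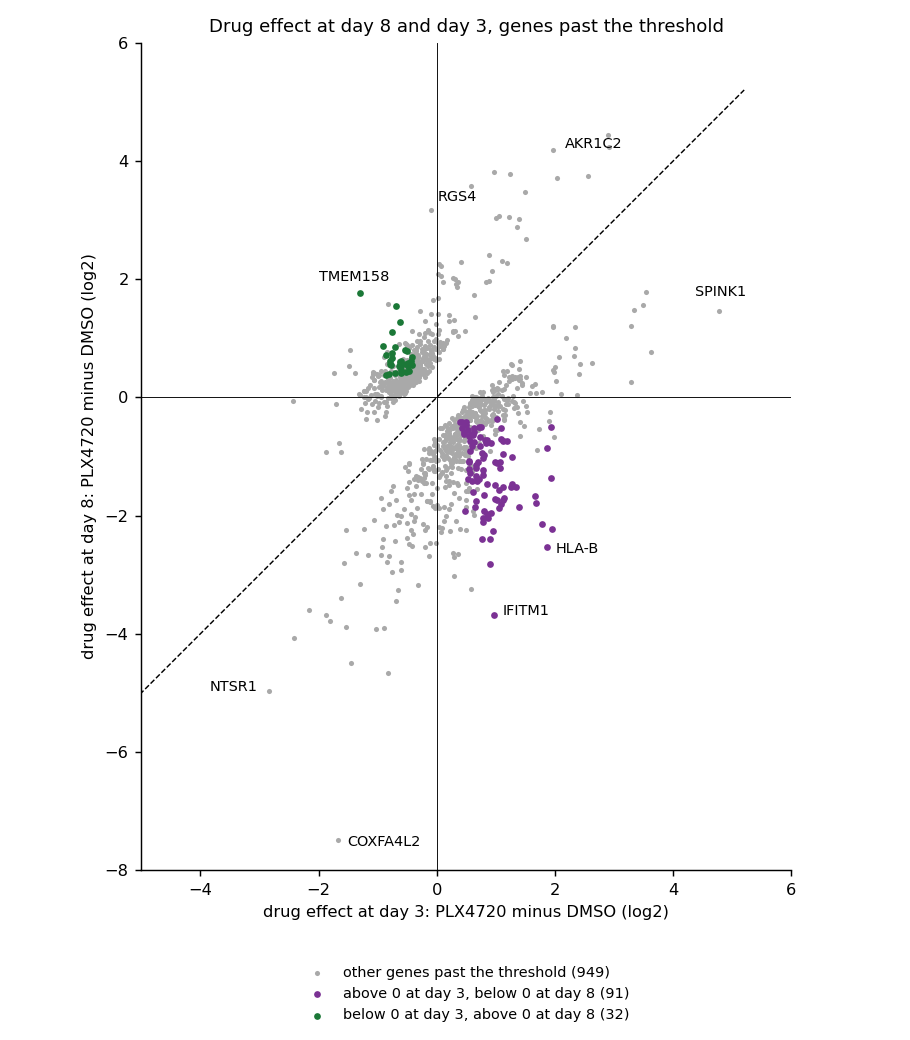
Drug effect at day 8 (vertical axis, log2) against the drug effect at day 3 (horizontal axis, log2) for the 1072 genes past the threshold, each effect being PLX4720 minus DMSO. Purple points are the 91 genes with a negative effect at day 8 and a positive one at day 3, green points the 32 genes turned the other way, and the dashed line marks equal effects.

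The hypoxia list held the most negative difference of all genes tested, and its members moved in the DMSO arm. Over all genes 4.92% had a negative and 3.54% a positive difference, and each list below is read against these shares. Of 20 tested genes of the hypoxia list, 13 had a lower drug effect at day 8 than at day 3 and none a higher one. The median difference of the list was -1.56 log2 units, against -0.02 over all genes. The median change was -0.00 in the PLX4720 arm, where 1 gene rose and none fell, and 1.70 in the DMSO arm, where 15 rose and none fell. The count stayed at 12 or 13 when single arrays were left out.

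COXFA4L2 (older symbol NDUFA4L2), a mitochondrial protein induced by hypoxia-inducible factors (chromosome 12, 57234903 to 57240762, GRCh38.p14), moved furthest. Its log2 intensity was 4.37 and 4.48 in PLX4720 day 8 cultures, 11.99 and 11.82 in DMSO day 8 cultures, 4.50 and 4.35 in PLX4720 day 3 cultures, and 5.58 and 6.60 in DMSO day 3 cultures. Both PLX4720 groups were not above background, so only the DMSO arm was measured, and it rose by 5.82 (adjusted p = 6.7e-06). At day 8 the level was at least 173-fold lower with PLX4720 than with DMSO, and at day 3 at least 2.96-fold lower. Here and below such a bound is set by the higher of the weakest signal above background and the probe's own. It is approximate, since some probes not above background read higher than that weakest signal. The fitted difference was -5.82 ± 0.38 (SE, adjusted p = 0.00012). P4HA1, which hydroxylates procollagen, had 7.75 and 8.00 in PLX4720 day 8 cultures, 11.40 and 11.26 in DMSO day 8 cultures, 8.14 and 7.66 in PLX4720 day 3 cultures, and 8.36 and 8.83 in DMSO day 3 cultures. The DMSO day 8 arrays stood above all others, and the difference was -2.76 ± 0.29 (adjusted p = 0.00087). With the dimmer probe of P4HA1 it was -0.38 (adjusted p = 0.67).

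ANGPTL4, a secreted inhibitor of lipoprotein lipase, had a difference of -2.89 ± 0.38 (adjusted p = 0.0026), and VEGFA, the main angiogenic growth factor, one of -1.92 ± 0.30 (adjusted p = 0.0064). With the dimmer probe of ANGPTL4 the difference was -0.47 (adjusted p = 0.34). VEGFA read 7.13 and 6.92 in PLX4720 day 8 cultures, 9.32 and 9.01 in DMSO day 8 cultures, 7.04 and 6.77 in PLX4720 day 3 cultures, and 7.02 and 7.24 in DMSO day 3 cultures, so the drug effect on VEGFA was seen on day 8 (-2.14) and was -0.23 on day 3. EGLN3, the prolyl hydroxylase that marks hypoxia-inducible factors for degradation, was above background only in DMSO day 8 cultures, at least 7.97-fold above PLX4720 day 8 cultures and at least 7.72-fold above DMSO day 3 cultures. DDIT4, a stress-induced inhibitor of mTORC1, had a difference of -1.95 ± 0.27 (adjusted p = 0.0032), with a change of 0.14 in the PLX4720 arm and 2.08 in the DMSO arm. PDK1, which limits entry of pyruvate into mitochondria, did not pass (-1.29 ± 0.41, adjusted p = 0.091).

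Glycolysis and glucose transport followed with smaller sizes. Of 18 tested genes 10 had a negative difference past the threshold and none a positive one (median -0.93), with medians of -0.07 in the PLX4720 arm and 0.86 in the DMSO arm. The neuronal-type enolase ENO2 read 4.46 and 4.91 in PLX4720 day 8 cultures, 9.01 and 9.67 in DMSO day 8 cultures, 4.59 and 4.36 in PLX4720 day 3 cultures, and 5.33 and 5.27 in DMSO day 3 cultures, a difference of -3.83 ± 0.49 (adjusted p = 0.0023). The aldolase ALDOC read 7.90 and 8.21, 12.54 and 12.56, 8.11 and 8.14, and 9.30 and 9.85 in the same order of groups, a difference of -3.04 ± 0.26 (adjusted p = 0.00035). For both genes the DMSO day 8 arrays were the highest and the DMSO day 3 arrays came next, above the PLX4720 arrays of both days, which overlapped. The PLX4720 readings of ENO2 lay near the level of genes at background, and ENO2 was not detected on all 8 arrays of days 3 and 8. The size of its difference therefore depends on the background correction. The count of 10 became 6 without the first PLX4720 day 3 array or the first DMSO day 3 array.

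The glucose transporter SLC2A1 and the hexokinase HK2 already differed at day 3. SLC2A1 read 10.99 and 10.90 in PLX4720 day 8 cultures, 13.84 and 13.67 in DMSO day 8 cultures, 11.08 and 11.07 in PLX4720 day 3 cultures, and 12.63 and 12.64 in DMSO day 3 cultures. Its drug effect was -2.81 at day 8 and -1.56 at day 3, a difference of -1.25 ± 0.19 (adjusted p = 0.0053). HK2 had an effect of -3.59 at day 8 and -2.16 at day 3, a difference of -1.44 ± 0.18 (adjusted p = 0.0023), which with its dimmer probe was -0.47 (adjusted p = 0.29). The regulators of glycolytic flux PFKFB3 (-1.71 ± 0.31, adjusted p = 0.012) and PFKFB4 (-1.79 ± 0.39, adjusted p = 0.025) passed as well, while lactate dehydrogenase LDHA did not (-0.64 ± 0.20, adjusted p = 0.086). The call for PFKFB4 was lost in 6 of the 8 settings that leave out an array (all but those without the second PLX4720 day 3 or the second DMSO day 3 array), and the call for PFKFB3 without the first PLX4720 day 3 array, without the first DMSO day 3 array and with its dimmer probe (highest adjusted p = 0.12). TXNIP, which restrains glucose uptake, had a drug effect of -0.51 at day 8 and 1.93 at day 3, and its level changed by 0.37 in the PLX4720 arm (adjusted p = 0.14) and rose by 2.81 in the DMSO arm (adjusted p = 4.3e-06).

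The promoters of 3 of these genes are shown because the core hypoxia response element is the motif through which hypoxia-inducible factors act. The sequences are the 250 bases before the annotated start from RefSeq (GRCh38.p14), written 5′ to 3′ on the gene's strand, and capitals mark every ACGTG or GCGTG on either strand. COXFA4L2 lies at chr12:57240763-57241012 (minus strand), P4HA1 at chr10:73096867-73097116 (minus strand) and ALDOC at chr17:28576896-28577145 (minus strand).
COXFA4L2: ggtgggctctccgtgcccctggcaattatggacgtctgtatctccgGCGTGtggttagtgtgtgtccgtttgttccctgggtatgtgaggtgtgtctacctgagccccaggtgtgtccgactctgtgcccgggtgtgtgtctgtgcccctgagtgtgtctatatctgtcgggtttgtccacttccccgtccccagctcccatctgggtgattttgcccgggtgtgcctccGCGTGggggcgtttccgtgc
P4HA1: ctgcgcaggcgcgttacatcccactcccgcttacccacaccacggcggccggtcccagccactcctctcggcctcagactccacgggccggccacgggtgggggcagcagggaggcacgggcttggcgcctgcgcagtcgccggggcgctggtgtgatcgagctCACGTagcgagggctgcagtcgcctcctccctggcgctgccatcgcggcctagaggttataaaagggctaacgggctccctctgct
ALDOC: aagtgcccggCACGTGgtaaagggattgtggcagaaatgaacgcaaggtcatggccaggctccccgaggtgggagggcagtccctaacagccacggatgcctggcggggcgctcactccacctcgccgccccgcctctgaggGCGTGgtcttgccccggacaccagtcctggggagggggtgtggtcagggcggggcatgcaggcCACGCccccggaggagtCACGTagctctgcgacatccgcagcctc
COXFA4L2 held 2 matches, P4HA1 held 1 and ALDOC held 5, its CACGTG being counted once on each strand as overlapping matches. The motif was present before 8 of 10 called hypoxia genes with a promoter in the table (80.0%) and 7 of 10 called glycolysis genes (70.0%). It is short and common: 43.1% of 27305 promoters and 55.9% of the 10089 promoters of genes tested held it, and so did 8 of 9 called ribosome biogenesis genes (88.9%), which moved the other way. These letters alone do not set the hypoxia genes apart.

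The interferon response moved in both arms and in opposite directions. All 25 tested genes of the list had a lower drug effect at day 8 than at day 3, with a median difference of -2.34. In the PLX4720 arm 12 of 25 fell and none rose (median -0.85), and in the DMSO arm all 25 rose (median 1.70). The drug effect was negative for 25 genes at day 8, while at day 3 it was positive for 17 and negative for none. The count was 24 or 25 when single arrays were left out, and it ranged from 19 to 25 over the other settings.

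IFITM1, a membrane protein that restricts virus entry (chromosome 11, 314040 to 315272, GRCh38.p14), read 8.21 and 8.64 in PLX4720 day 8 cultures, 12.09 and 12.14 in DMSO day 8 cultures, 9.71 and 9.73 in PLX4720 day 3 cultures, and 8.89 and 8.63 in DMSO day 3 cultures. PLX4720 was thus the lower group at day 8 (-3.69, adjusted p = 1.6e-05) and the higher at day 3 (0.96, adjusted p = 0.023). The difference was -4.65 ± 0.33 (adjusted p = 0.00019), with a fall of 1.30 in the PLX4720 arm (adjusted p = 0.026) and a rise of 3.35 in the DMSO arm (adjusted p = 3.5e-05). IFITM1, IFITM2 and IFITM3 are near-identical paralogs, and their probes may share signal.

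IFI44L, an antiviral protein, read 9.08 and 9.54 in PLX4720 day 8 cultures, 11.64 and 11.27 in DMSO day 8 cultures, 10.28 and 10.15 in PLX4720 day 3 cultures, and 8.30 and 8.56 in DMSO day 3 cultures. The groups did not overlap on either day, and the drug effect was -2.15 at day 8 and 1.79 at day 3, a difference of -3.93 ± 0.26 (adjusted p = 0.00012). MX2, an antiviral GTPase, read 7.21 and 7.46, 10.10 and 10.20, 8.73 and 8.62, and 7.84 and 7.73 in the same order of groups, a difference of -3.71 ± 0.21 (adjusted p = 0.00012). ISG15, the ubiquitin-like modifier, read 11.14 and 11.32 in PLX4720 day 8 cultures, 13.40 and 13.45 in DMSO day 8 cultures, 12.34 and 12.32 in PLX4720 day 3 cultures, and 12.36 and 12.24 in DMSO day 3 cultures. For ISG15 the drug groups overlapped at day 3 (0.03) and separated at day 8 (-2.19), with a fall of 1.10 in the PLX4720 arm and a rise of 1.12 in the DMSO arm. IFIT1, which binds viral RNA, had a difference of -2.21 ± 0.20 (adjusted p = 0.00043) and LAMP3, a lysosomal protein of the interferon response, one of -3.46 ± 0.32 (adjusted p = 0.00046). With the dimmer probe of each gene the difference missed the threshold for IFI44L (-1.60, adjusted p = 0.060), for IFIT1 (-0.87, adjusted p = 0.27) and for LAMP3 (-1.50, adjusted p = 0.064).

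The plot of single genes by array places these values in the time course, which includes the day 1 arrays that the contrast did not use. At day 1 IFITM1 read 4.96 and 5.24 with PLX4720 and 5.01 and 4.32 with DMSO, so both arms began low. The median of the interferon list, relative to its mean over the 12 HT29 arrays, was -1.44 and -1.35 at day 1, 1.18 and 1.15 at day 3 and 0.22 and 0.34 at day 8 with PLX4720. With DMSO it was -2.35 and -2.22 at day 1, 0.46 and 0.42 at day 3 and 1.93 and 2.04 at day 8. The DMSO arm was higher at each later day, while the PLX4720 arm was highest at day 3.

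**Figure D3:**
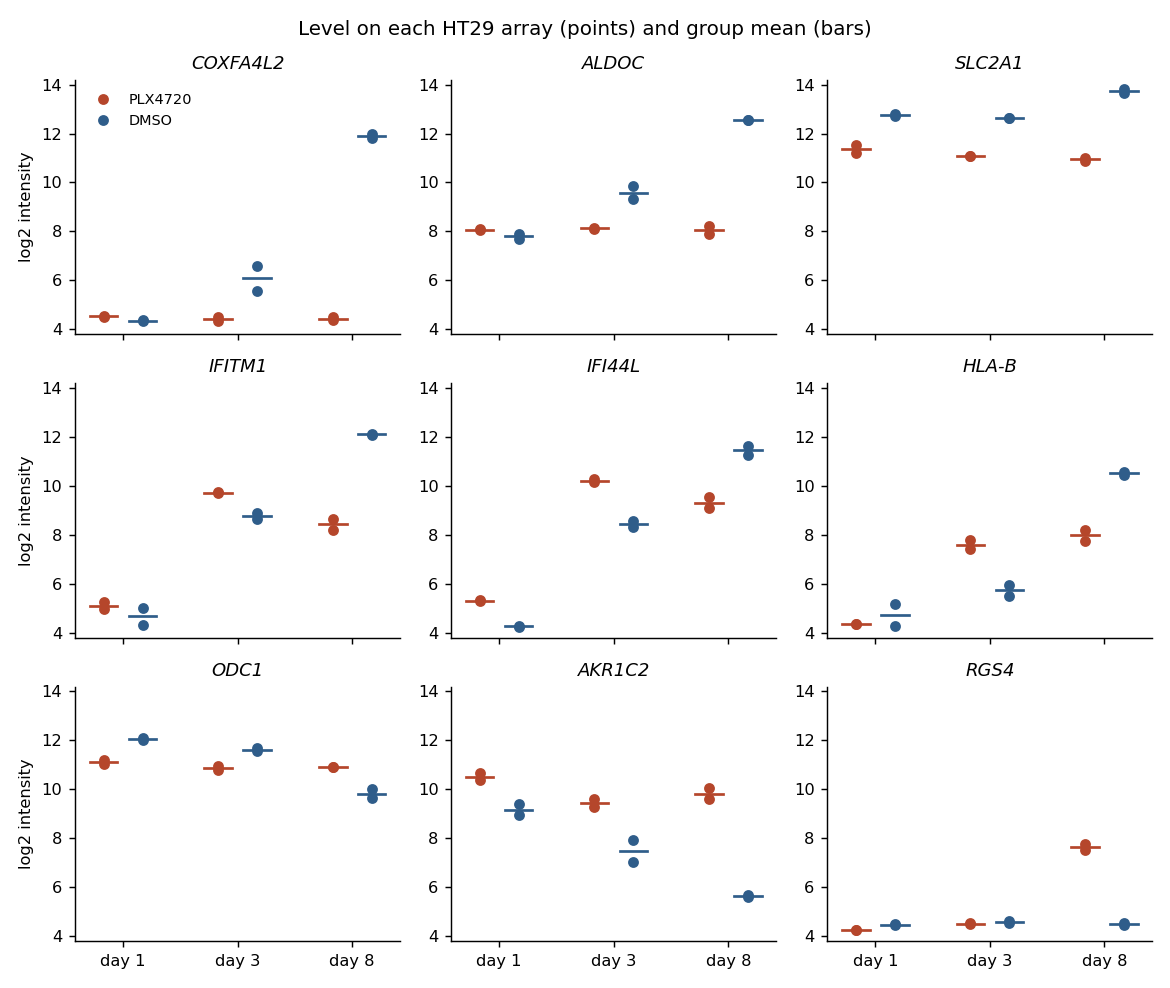
Log2 intensity (vertical axis) of 9 genes on each of the 12 HT29 arrays at days 1, 3 and 8, with PLX4720 in red to the left of DMSO in blue. Points are single arrays and bars are means of 2 arrays; COXFA4L2, ALDOC and SLC2A1 part between the arms as DMSO rises to day 8, IFITM1 and IFI44L cross between day 3 and day 8, and RGS4 leaves background only with PLX4720 at day 8.

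The upstream sequences of 4 interferon genes are shown because they carry the interferon-stimulated response element, searched as GAAANNGAAA on both strands. They are the 250 bases before the RefSeq start (GRCh38.p14), 5′ to 3′ on the gene's strand, with matches in capitals. IFITM1 lies at chr11:313790-314039, IFI44L at chr1:78620198-78620447, IFIT1 at chr10:89392373-89392622 and ISG15 at chr1:1013247-1013496, all on the plus strand.
IFITM1: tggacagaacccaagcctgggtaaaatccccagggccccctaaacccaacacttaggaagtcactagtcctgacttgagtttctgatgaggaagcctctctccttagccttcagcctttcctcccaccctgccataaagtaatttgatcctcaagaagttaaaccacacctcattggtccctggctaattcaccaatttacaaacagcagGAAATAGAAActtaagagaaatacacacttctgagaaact
IFI44L: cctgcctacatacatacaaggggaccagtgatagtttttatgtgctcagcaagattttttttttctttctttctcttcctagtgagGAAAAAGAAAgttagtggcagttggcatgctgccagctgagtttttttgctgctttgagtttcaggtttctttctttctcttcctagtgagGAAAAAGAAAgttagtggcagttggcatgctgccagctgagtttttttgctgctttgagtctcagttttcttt
IFIT1: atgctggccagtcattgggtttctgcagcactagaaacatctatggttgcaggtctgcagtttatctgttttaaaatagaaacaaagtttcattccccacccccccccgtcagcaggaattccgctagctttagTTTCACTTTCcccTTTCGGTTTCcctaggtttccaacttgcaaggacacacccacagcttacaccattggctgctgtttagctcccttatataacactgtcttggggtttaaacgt
ISG15: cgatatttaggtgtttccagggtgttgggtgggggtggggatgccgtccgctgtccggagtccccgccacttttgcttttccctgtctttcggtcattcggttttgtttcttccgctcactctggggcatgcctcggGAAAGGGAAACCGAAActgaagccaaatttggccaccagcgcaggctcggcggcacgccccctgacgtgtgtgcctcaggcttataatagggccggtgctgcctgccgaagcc
IFITM1 held 1 match, 40 bases before the start, and the other genes held 2 each, which overlap in ISG15. The motif was present before 12 of 19 called interferon genes with a promoter in the table (63.2%) and 5 of 8 called HLA class I genes (62.5%), against 3.07% of 27305 promoters and 2.47% of the 10089 promoters of genes tested. It was present before 0 of 10 called hypoxia, 0 of 10 called glycolysis and 0 of 9 called ribosome biogenesis genes. The interferon list was chosen for known function, so its share is a description and not a test.

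The HLA class I pathway moved with the interferon genes, mainly in the DMSO arm. Of 12 tested genes 9 had a negative difference past the threshold and none a positive one (median -1.46). The count was 9 whichever single array was left out, and 5 with the dimmest probe of each gene. In the PLX4720 arm 2 fell and none rose (median -0.22), and in the DMSO arm 10 rose (median 1.51). HLA-B, which presents peptides to T cells (chromosome 6, 31353875 to 31357179, GRCh38.p14), read 7.76 and 8.19 in PLX4720 day 8 cultures, 10.43 and 10.58 in DMSO day 8 cultures, 7.77 and 7.42 in PLX4720 day 3 cultures, and 5.96 and 5.51 in DMSO day 3 cultures. It was lower with PLX4720 at day 8 (-2.53, adjusted p = 0.00043) and higher at day 3 (1.86, adjusted p = 0.0032), and its difference was -4.39 ± 0.40 (adjusted p = 0.00046). HLA class I genes are highly alike and vary between people, so the HLA-B probe may not be specific.

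B2M, the invariant chain of HLA class I and often used as a reference gene, had a drug effect of -0.66 at day 8 and 0.55 at day 3 (difference -1.21 ± 0.15, adjusted p = 0.0023). The peptide transporter TAP1 (-2.41 ± 0.29, adjusted p = 0.0019) and the immunoproteasome subunit PSMB9 (-2.86 ± 0.31, adjusted p = 0.0010) passed as well. PSMB9 did not pass with its dimmer probe (-1.01, adjusted p = 0.19). Non-coding HCP5, from the HLA region, had a difference of -4.19 ± 0.26 (adjusted p = 0.00012) and complement factor CFB one of -3.34 ± 0.26 (adjusted p = 0.00030). Of 10 tested NF-kB and chemokine genes 2 had a negative difference, against 4.92% over all genes, and none a positive one. TNFAIP2 was among the 2 (-1.70 ± 0.27, adjusted p = 0.0072). The count was lower without either PLX4720 day 8 array, either PLX4720 day 3 array or the second DMSO day 3 array.

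Ribosome biogenesis and polyamine genes moved the other way, again in the DMSO arm. Of 18 tested genes 12 had a positive difference and none a negative one (median 0.93). None passed in either direction in the PLX4720 arm (median -0.06), and 16 fell in the DMSO arm (median -0.91). The drug effect on these genes was positive for 4 and negative for none at day 8, and negative for 14 at day 3. The count of 12 became 7 without the first PLX4720 day 8 array or the first DMSO day 3 array, and 8 without either PLX4720 day 3 array.

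ODC1, the rate-limiting enzyme of polyamine synthesis (chromosome 2, 10439968 to 10448327, GRCh38.p14), read 10.91 and 10.91 in PLX4720 day 8 cultures, 9.99 and 9.62 in DMSO day 8 cultures, 10.94 and 10.78 in PLX4720 day 3 cultures, and 11.68 and 11.55 in DMSO day 3 cultures. The PLX4720 arrays were alike on both days, and the DMSO arrays lay below them at day 8 and above them at day 3. The difference was 1.86 ± 0.20 (adjusted p = 0.0011). SRM, the next enzyme of that pathway, had a drug effect of 0.11 at day 8 and -1.23 at day 3 (difference 1.35 ± 0.16, adjusted p = 0.0016). The ribosome assembly factors NOP16 (1.48 ± 0.23, adjusted p = 0.0059), RRS1 (1.55 ± 0.29, adjusted p = 0.012) and NOP2 (1.41 ± 0.18, adjusted p = 0.0022) had differences of like size. RRS1 missed the threshold without the first PLX4720 day 8 array or the first DMSO day 3 array (highest adjusted p = 0.056), and NOP2 with its dimmer probe (0.83, adjusted p = 0.074).

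MYC, the transcription factor upstream of many of these genes, read 10.39 and 10.14 in PLX4720 day 8 cultures, 10.29 and 9.64 in DMSO day 8 cultures, 10.44 and 10.09 in PLX4720 day 3 cultures, and 11.46 and 11.20 in DMSO day 3 cultures. The drug groups overlapped at day 8 and stood apart at day 3, a difference of 1.36 ± 0.31 (adjusted p = 0.029) with a change of -0.01 in the PLX4720 arm and -1.36 in the DMSO arm. The call for MYC was lost in 5 of the 8 settings that leave out an array and with the 8 arrays of days 3 and 8 fitted alone, with adjusted p from 0.00061 to 0.11 over all alternatives. DANCR, a non-coding RNA that hosts small nucleolar RNAs, had a difference of 2.24 ± 0.17 (adjusted p = 0.00022), and its drug effect was 1.55 at day 8 and -0.69 at day 3. SNORD16, a small nucleolar RNA, had a difference of 2.27 ± 0.35 (adjusted p = 0.0056).

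The direct read-outs of ERK signalling gave differences in both directions. Of 20 tested MAPK output genes 2 had a positive and 2 a negative difference (median -0.05), against 3.54% positive and 4.92% negative over all genes, with median changes of -0.07 in the PLX4720 arm and 0.07 in the DMSO arm. The drug effect was negative for 11 and positive for 1 of them at day 8, and negative for 11 and positive for none at day 3. DUSP6, the phosphatase that ERK induces against itself, read 7.13 and 7.46 in PLX4720 day 8 cultures, 9.46 and 9.79 in DMSO day 8 cultures, 7.14 and 7.004 in PLX4720 day 3 cultures, and 9.29 and 9.27 in DMSO day 3 cultures. It was lower with PLX4720 on both days (-2.33 at day 8, -2.21 at day 3), and the difference of -0.12 ± 0.24 did not pass (adjusted p = 0.80).

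The genes past the threshold were MYC and the immediate-early gene EGR1 upward and PLAUR and SPRED1 downward. EGR1 had a drug effect of 0.34 at day 8 and -1.09 at day 3, a difference of 1.43 ± 0.25 (adjusted p = 0.0095) with a change of -0.14 in the PLX4720 arm and -1.57 in the DMSO arm. PLAUR, the urokinase receptor, had an effect of -2.64 at day 8 and -1.36 at day 3 (difference -1.28 ± 0.21, adjusted p = 0.0080), and its call was lost with the dimmer probe (-0.70, adjusted p = 0.31). The call for SPRED1, an inhibitor of RAS signalling (-0.66 ± 0.16, adjusted p = 0.036), was lost without any 1 of the 8 arrays, so that 1 negative call was left each time. FOSL1 (0.88 ± 0.30, adjusted p = 0.11) and CCND1 (0.28 ± 0.18, adjusted p = 0.39) did not pass. CALB2, the calcium-binding protein calretinin, fell in both arms by 1.39 with PLX4720 and by 1.17 with DMSO, and its large drug effect, -4.16 at day 8 and -3.94 at day 3, did not differ past the threshold (-0.22 ± 0.16, adjusted p = 0.44).

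Genes of DNA replication and mitosis were lower at day 8 in both arms, further with DMSO by the median. The changes of the 27 tested genes ran from -1.24 to -0.32 in the PLX4720 arm (median -0.57), all below 0. In the DMSO arm they ran from -1.77 to 0.06 (median -0.82). Past the threshold 3 of 27 fell in the PLX4720 arm and 24 of 27 in the DMSO arm, each arm adjusted on its own. None rose past it in either, and the median difference was 0.25. A positive difference past the threshold was found for 1 of 27, near the 3.54% over all genes, and a negative one for none. The gene was the mitotic kinase PLK1 (1.06 ± 0.26, adjusted p = 0.039). Its call was kept without the second DMSO day 3 array and lost without any other single array. It was also lost with median scaling, with 2 looser filters on dim probes and with the dimmest probe of each gene. The CDK inhibitor CDKN1A rose in both arms, by 0.78 with PLX4720 and by 1.28 with DMSO, with a difference of -0.50 ± 0.21 (adjusted p = 0.18). MMP7, a matrix protease (-1.46 ± 0.34, adjusted p = 0.033), and PMAIP1, a pro-apoptotic BCL2 family member (-1.10 ± 0.25, adjusted p = 0.030), passed in the difference but in neither arm, and the call was lost without any 1 of the 8 arrays for MMP7 and without 7 of the 8 for PMAIP1.

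**Figure D4:**
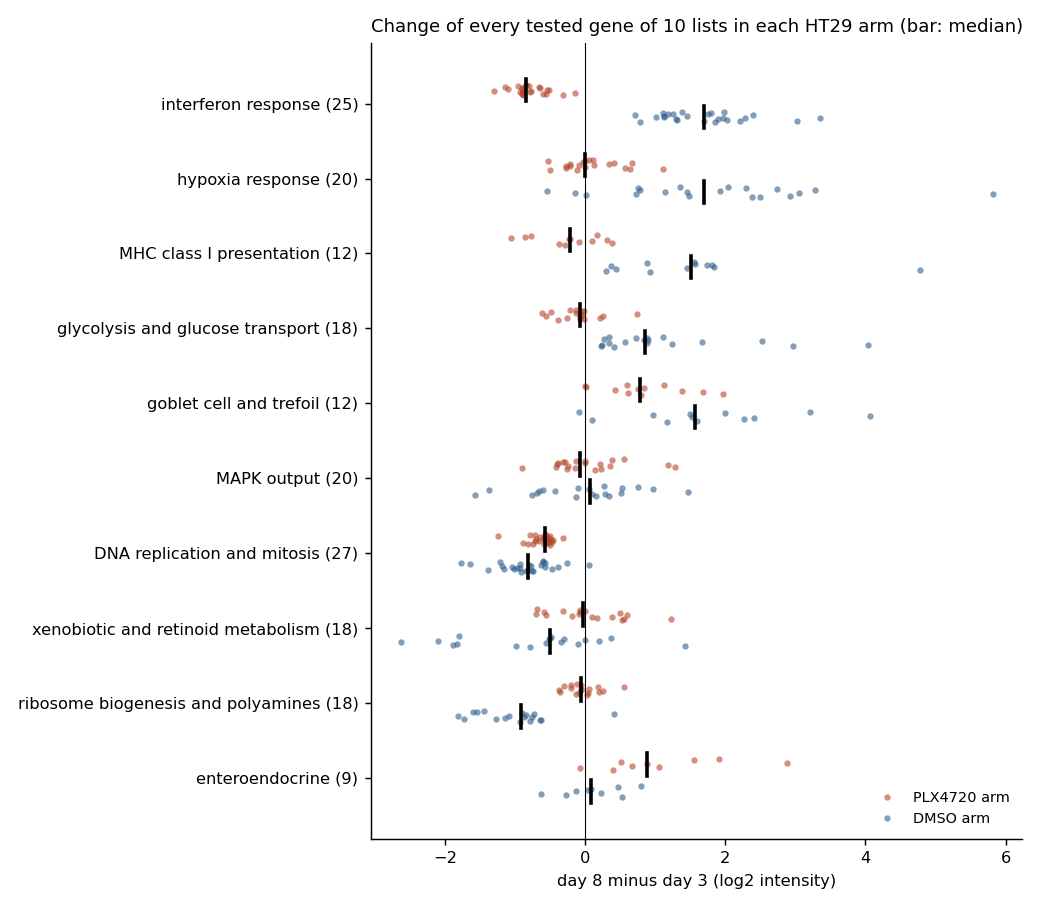
Change between day 3 and day 8 (horizontal axis, log2 intensity) of every tested gene of 10 lists, with the PLX4720 arm in red above the DMSO arm in blue. Each point is a gene, black bars are medians and numbers in brackets are genes; the interferon medians lie at -0.85 and 1.70, the hypoxia medians at -0.00 and 1.70, and the enteroendocrine medians at 0.88 and 0.08.

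The goblet and trefoil genes rose in both arms, further with DMSO. In the PLX4720 arm 7 of 12 rose (median 0.78) and in the DMSO arm 10 of 12 (median 1.56), and 5 had a negative treatment-by-time difference while none had a positive one. SPINK1, a secreted trypsin inhibitor, read 13.38 and 13.63 in PLX4720 day 8 cultures, 11.98 and 12.11 in DMSO day 8 cultures, 12.75 and 12.75 in PLX4720 day 3 cultures, and 8.05 and 7.91 in DMSO day 3 cultures. PLX4720 stayed above DMSO on both days, the PLX4720 arm rose by 0.75 and the DMSO arm by 4.06, and the drug effect was 1.46 at day 8 and 4.77 at day 3 (difference -3.31 ± 0.20, adjusted p = 0.00012). The trefoil peptide TFF3 went the same way, with an effect of 1.20 at day 8 and 3.29 at day 3 (-2.08 ± 0.46, adjusted p = 0.026). TFF2 differed instead at day 8, where the effect was -1.86 against 0.13 at day 3 (-1.99 ± 0.27, adjusted p = 0.0032). The count of 5 was 2 without any 1 array other than the first DMSO day 8 array, with which left out it was 4. TFF3 was among the calls lost.

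Absorptive and identity genes gave a mixed picture. Of 16 tested enterocyte genes 1 had a positive and 4 a negative difference, and of 10 colon identity genes 3 had a negative one. Over all genes 3.54% were positive and 4.92% negative, so 1 positive gene of 16 is close to that share. The positive gene was the homeobox factor CDX1, which read 7.61 and 7.43 in PLX4720 day 8 cultures, 5.01 and 4.28 in DMSO day 8 cultures, 5.58 and 5.74 in PLX4720 day 3 cultures, and 4.31 and 4.30 in DMSO day 3 cultures. It was above background only with PLX4720, rose by 1.86 in that arm (adjusted p = 0.0046), and was at least 6.77-fold above DMSO at day 8 and at least 2.24-fold at day 3. CDX1 could meet the detection filter through the PLX4720 groups, so its p-values are conditional on them. Its relative CDX2 rose by 1.70 in the PLX4720 arm (adjusted p = 0.012) but missed the threshold for the difference (1.11 ± 0.36, adjusted p = 0.090). The adhesion molecules CDH17 and GPA33 rose in both arms, CDH17 by 0.85 with PLX4720 and 1.85 with DMSO, and GPA33 by 1.31 with PLX4720 and 2.39 with DMSO. Their differences were -1.001 ± 0.21 (adjusted p = 0.022) and -1.08 ± 0.21 (adjusted p = 0.016). CEACAM6 had a difference of -2.59 ± 0.56 (adjusted p = 0.024), with a wide spread between the arrays of each group.

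Several of these smaller counts depended on single arrays. The 4 negative enterocyte genes became 2 without either DMSO day 8 array or the second PLX4720 day 3 array, 1 without the first PLX4720 day 8 array or the first DMSO day 3 array, and 0 without the second PLX4720 day 8, the first PLX4720 day 3 or the second DMSO day 3 array. The 3 identity genes became 2 without the first DMSO day 8 array, 1 without any PLX4720 day 3 or DMSO day 3 array, and 0 without either PLX4720 day 8 array or the second DMSO day 8 array. CDH17, GPA33 and CEACAM6 each lost their call in 5 of the 8 settings that leave out an array (highest adjusted p = 0.087, 0.068 and 0.079). CDX1 lost its call without any 1 of the PLX4720 or DMSO day 3 arrays and without either PLX4720 day 8 array. Of 11 stem cell and Wnt genes 3 had a negative difference, against 4.92% over all genes. Among them was ASCL2, a crypt stem cell transcription factor with an effect of 0.47 at day 8 and 1.96 at day 3 (-1.49 ± 0.22, adjusted p = 0.0048). DKK1, a secreted Wnt inhibitor, was the 1 positive gene of the 11, against 3.54% over all genes (1.80 ± 0.42, adjusted p = 0.032). Its call was lost without either PLX4720 day 3 array, the second PLX4720 day 8, the second DMSO day 8 or the first DMSO day 3 array, and with the 8 arrays of days 3 and 8 fitted alone (highest adjusted p = 0.11). The 3 became 1 without the first PLX4720 day 8 array or the first DMSO day 3 array.

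The 31 genes that passed in the PLX4720 arm alone were 22 with a positive and 9 with a negative difference. RGS4, which switches off G protein signalling (chromosome 1, 163068871 to 163076802, GRCh38.p14), read 7.53 and 7.77 in PLX4720 day 8 cultures, 4.44 and 4.52 in DMSO day 8 cultures, 4.48 and 4.51 in PLX4720 day 3 cultures, and 4.54 and 4.63 in DMSO day 3 cultures. It was above background only with PLX4720 at day 8, at least 8.80-fold above DMSO at day 8 and at least 8.73-fold above PLX4720 at day 3 (fitted difference 3.27 ± 0.16, adjusted p = 9.4e-05). TRPM6, a magnesium channel, behaved alike, at least 4.14-fold above DMSO at day 8 and at least 4.11-fold above PLX4720 at day 3 (fitted difference 2.21 ± 0.18, adjusted p = 0.00033). RGS4 and TRPM6 met the detection filter through the group where they were high, so their p-values are conditional on that group.

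The endocrine lineage factor PAX4 read 8.12 and 8.41 in PLX4720 day 8 cultures, 4.62 and 4.29 in DMSO day 8 cultures, 4.99 and 5.77 in PLX4720 day 3 cultures, and 4.39 and 4.43 in DMSO day 3 cultures. It was not above background with DMSO, rose by 2.88 in the PLX4720 arm (adjusted p = 0.00066), and was at least 12.9-fold above DMSO at day 8 and at least 1.84-fold at day 3. ENPP2, which makes lysophosphatidic acid, was likewise at least 12.9-fold above DMSO at day 8 and at least 2.10-fold at day 3. PRSS1, a trypsinogen with near-identical paralogs that its probe may also read, was at least 11.2-fold above DMSO at day 8 and at least 1.42-fold at day 3. For PAX4, ENPP2 and PRSS1 the fitted differences were 2.84 ± 0.33 (adjusted p = 0.0016), 2.54 ± 0.29 (adjusted p = 0.0014) and 3.01 ± 0.27 (adjusted p = 0.00044). None of these genes was above background with DMSO at day 8 or day 3. They could meet the detection filter through the PLX4720 groups where they were high, so their p-values are conditional on those groups.

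PAX4 belongs to the enteroendocrine list, where 3 of 9 tested genes had a positive difference, against 3.54% over all genes, and none a negative one. Of the 16 genes of the list 7 were not tested. Members such as PAX4 could enter the test through the arm where they were high, so the share of the list is no support for an excess over all genes. In the PLX4720 arm 4 of 9 rose (median 0.88), and in the DMSO arm 1 rose and 1 fell (median 0.08). INSM1, a zinc finger factor of endocrine precursors, rose by 1.05 in the PLX4720 arm (adjusted p = 0.029) and was at least 3.85-fold above DMSO at day 8. Its fitted change in the DMSO arm was -0.64 (adjusted p = 0.033). INSM1 was not above background in DMSO day 8 cultures, so the size of that fall depends on the background correction. Over the alternatives its treatment-by-time difference ranged from 0.70 to 1.95. SCG5, a chaperone of hormone processing, read 7.51 and 8.08 in PLX4720 day 8 cultures, 5.77 and 5.93 in DMSO day 8 cultures, 5.84 and 5.94 in PLX4720 day 3 cultures, and 4.94 and 5.18 in DMSO day 3 cultures (difference 1.11 ± 0.26, adjusted p = 0.035). NEUROG3, the factor that starts endocrine differentiation, did not pass (0.43 ± 0.39, adjusted p = 0.54). The count of 3 was 2 without any 1 array other than the first PLX4720 day 8 array, SCG5 among the calls lost, and ranged from 0 to 3 over the other settings. It was 0 where detection was required on all 8 arrays of days 3 and 8.

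The other positive genes of the PLX4720 arm alone, named after their values were seen, were KCTD12, CHP2, ELAPOR1, CNTNAP2, RASD1, GAS6, NEB, UGT2A3, CDX1, CAV1, TUBB2B, SLC17A4, RNASE1, HES6, PABIR1, DSEL and RPS23. The 9 negative ones, named in the same way, were NTSR1, HERC5, IL32, LGALS1, MT2A, TAPBPL, LAP3, KLK10 and C5. NTSR1, the neurotensin receptor, read 4.54 and 4.92 in PLX4720 day 8 cultures, 9.58 and 9.80 in DMSO day 8 cultures, 6.43 and 6.85 in PLX4720 day 3 cultures, and 9.42 and 9.54 in DMSO day 3 cultures. The DMSO arm changed by 0.21 (adjusted p = 0.56) and the PLX4720 arm fell by 1.92 (adjusted p = 0.0077), so that the drug effect was -4.97 at day 8 and -2.84 at day 3 (-2.13 ± 0.36, adjusted p = 0.0083). The PLX4720 day 8 readings of NTSR1 lay near the level of genes at background, and it was not detected on all 8 arrays of days 3 and 8. The sizes of the fall and of the day 8 effect therefore depend on the background correction. MT2A, a metallothionein, had an effect of -0.05 at day 8 and 1.19 at day 3 (-1.24 ± 0.26, adjusted p = 0.021), a call lost without either PLX4720 day 8 array, either DMSO day 3 array or the second PLX4720 day 3 array.

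Of the 71 genes that changed in both arms, 38 went in opposite directions and 33 in the same one. TMEM158, a membrane protein induced by RAS, read 6.97 and 7.07 in PLX4720 day 8 cultures, 5.22 and 5.28 in DMSO day 8 cultures, 5.30 and 4.73 in PLX4720 day 3 cultures, and 6.60 and 6.03 in DMSO day 3 cultures. It rose by 2.00 in the PLX4720 arm (adjusted p = 0.0046) and fell by 1.07 in the DMSO arm (adjusted p = 0.0080), and its drug effect was 1.77 at day 8 and -1.30 at day 3 (difference 3.07 ± 0.34, adjusted p = 0.0011). The size depended on the processing, with differences from 1.30 to 3.35 over the alternatives.

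Drug-metabolising enzymes fell in the DMSO arm. Of 18 tested xenobiotic and retinoid genes 6 had a positive difference and 1 a negative one (median 0.50), 1 rose and none fell in the PLX4720 arm (median -0.03), and 1 rose and 10 fell in the DMSO arm (median -0.51). AKR1C2, an aldo-keto reductase, read 10.07 and 9.58 in PLX4720 day 8 cultures, 5.61 and 5.69 in DMSO day 8 cultures, 9.60 and 9.28 in PLX4720 day 3 cultures, and 7.94 and 7.02 in DMSO day 3 cultures (difference 2.22 ± 0.43, adjusted p = 0.016). ALDH3A1, an aldehyde dehydrogenase, had a drug effect of 2.09 at day 8 and 0.01 at day 3, with a change of -0.56 in the PLX4720 arm and -2.63 in the DMSO arm (difference 2.07 ± 0.22, adjusted p = 0.00095). AKR1B10 (2.04 ± 0.31, adjusted p = 0.0053) and the alcohol dehydrogenase ADH1C (1.55 ± 0.26, adjusted p = 0.0080) passed too, and the AKR1C, AKR1B and ADH1 families each have near-identical members. CYP1A1, a target of the aryl hydrocarbon receptor, had a large effect on both days, 4.90 at day 8 and 3.95 at day 3, and its difference did not pass (0.95 ± 0.30, adjusted p = 0.088). The count of 6 was 4 without the first PLX4720 day 8 array or the second PLX4720 day 3 array, and the call for AKR1C2 was lost in those 2 settings.

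The day 1 arrays offer values outside the contrast. At day 1 the drug effect was positive for 1499 genes (11.8%) and negative for 1363 (10.8%) of the 12675. Of the 623 genes with a negative treatment-by-time difference, 300 (48.2%) had a positive drug effect at day 1 and 33 a negative one. Of the 449 with a positive difference, 13 had a positive day 1 effect and 240 (53.5%) a negative one. Among the 91 genes that turned downward 61 were positive at day 1, and among the 32 that turned upward 29 were negative. The day 1 effect was negative for 17 of 18 ribosome biogenesis genes and 15 of 20 MAPK output genes, and positive for 16 of 25 interferon genes. The hypoxia list had 3 positive and 4 negative of 20. The plot of list medians by array shows the arms apart at day 1 for 5 of the 6 lists, while for the hypoxia list they overlapped, at -0.31 and -0.48 with PLX4720 and -0.42 and -0.51 with DMSO. The day 1 comparison was added after the values were seen.

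**Figure D5:**
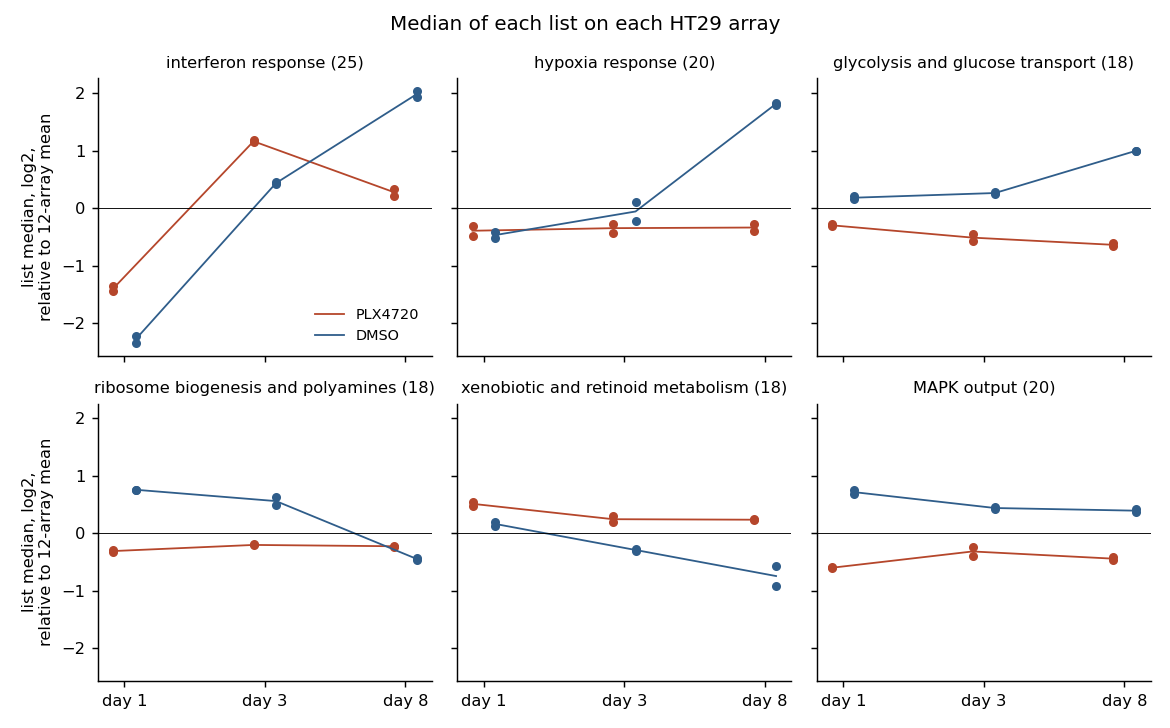
Median of 6 gene lists on each HT29 array (vertical axis, log2, each gene relative to its mean over 12 arrays) at days 1, 3 and 8, PLX4720 in red to the left of DMSO in blue. Points are arrays and lines join the means of 2 arrays; the hypoxia median with DMSO is 1.80 and 1.84 at day 8, and that of the ribosome list with DMSO is -0.46 and -0.43.

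Colo-205, a second colon cancer line with mutant BRAF, had 1 array per group and a last time point at day 10, so its values carry no test and its days differ from those of HT29. Taken as (PLX4720 day 10 minus DMSO day 10) minus (PLX4720 day 3 minus DMSO day 3), the difference was below 0 for 16 of 18 detected hypoxia genes (median -1.25) and for 18 of 18 glycolysis genes (median -1.17). It was above 0 for 18 of 18 ribosome biogenesis genes (median 0.67). COXFA4L2 read 4.53 with PLX4720 at day 10, 10.01 with DMSO at day 10, 5.25 with PLX4720 at day 3 and 5.04 with DMSO at day 3. The interferon list was closer to 0 (median -0.29, 16 of 21 below 0), and IFITM1, IFI44L, RGS4 and PAX4 were detected on none of the 4 Colo-205 arrays. Of the genes called in HT29 and detected in Colo-205, 404 of 529 with a negative HT29 difference were below 0 and 346 of 405 with a positive one were above 0. Among those that went opposite to HT29 were TMEM158 (-1.53), SCG5 (-1.57) and CEACAM6 (0.69). Over all 10447 genes 4890 were below 0 and 5557 above.

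Several limits bear on single genes. Of the 1072 genes past the threshold, 110 had at least 1 of the 4 groups not above background, and their fitted sizes depend on the background correction. For 804 genes on the array the best probe was detected on exactly 2 HT29 arrays. Genes above background in only 1 of the 4 groups, such as RGS4, TRPM6 and EGLN3, could meet the filter through the group where they were high. Genes above background only with PLX4720, such as PAX4, ENPP2, PRSS1 and CDX1, could meet it through that arm. The place of either kind of gene among the genes tested is no further support. Over the alternatives the difference ranged from -2.34 to -0.96 for NTSR1, from 0.96 to 2.46 for SNORD16 and from -4.17 to -2.52 for ENO2. These are bulk cultures, so fewer cells of a kind and less RNA per cell cannot be told apart in any of these values. A further probe past the filter existed for 330 genes past the threshold, and for 268 of them every such probe had the same sign. For 62 a further probe had the opposite sign, and it passed the threshold only for TGM2 (-0.98 with the probe used, 1.41 with the other).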

How the data were processed

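Total RNA from 12 HT29 and 6 Colo-205 Matrigel cultures was measured on Illumina BeadChips. The raw table deposited by the authors gives, per array and for 47323 probes, a linear intensity with its detection p-value, as its file headers name them; no earlier correction of it is recorded. For the first PLX4720 day 8 array the column name contains the word mean, which is not explained. A second table deposited by the authors holds processed intensity values on a linear scale. Its normalization, not given in the sources used here, is unknown, and it served as an alternative.

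Normexp background correction in limma 3.58.1 (R 4.3.3) used the detection p-values and an offset of 16. All 18 arrays were then quantile normalized together and log2 transformed. All levels and changes in the text are on this log2 scale. Symbols came from the platform annotation and were updated through Entrez identifiers. Genes needed a detection p under 0.01 on at least 2 HT29 arrays, and each was read from its brightest probe. One lmFit and eBayes model with 6 group means covered the 12 HT29 arrays (6 residual degrees of freedom), with two-sided tests adjusted by Benjamini-Hochberg over 12675 genes at 0.05. In this model the day 1 arrays entered the contrast for the spread alone, but they also counted in the detection filter, the choice of probe and the normalization.

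A group with neither array above background gave only a bound, set per array by the higher of the weakest detected signal and the probe's own. Some undetected probes read above that weakest signal, so a bound is approximate and not a strict limit. No fold was given between groups at background. Errors are standard errors of the fit, and p-values measure the spread between these cultures. The members, 27 gene lists (484 genes, 387 tested) and 111 named genes were chosen with earlier results of these data known; the named genes were the 12 highest and 12 lowest differences, up to 4 per list, 5 per class and 32 fixed names, of which 2 are not reported here. Lists got counts and medians, no test. Alternatives covered background correction, scaling, filter, probe choice, replicate block and leaving out each array; normexp without the detection p-values was added after seeing the data.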

Additional observations from a re-analysis of the deposited data

Results flagged for a closer look

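The drug effect differed between day 8 and day 3 for 1072 genes by the test of the treatment-by-time difference itself. For 91 of them the effect was below 0 at day 8 and above 0 at day 3, each past the threshold, and for 32 it was above 0 at day 8 and below 0 at day 3.

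The 5 of the 91 with the greatest size were IFITM1 (-4.65), HLA-B (-4.39), HCP5 (-4.19), IFI44L (-3.93) and MX2 (-3.71), all interferon or HLA region genes. Of the 32, the leading 5 were TMEM158 (3.07), DANCR (2.24), AGMAT (1.89), ODC1 (1.86) and CHORDC1 (1.77). AGMAT, an enzyme of agmatine breakdown, had a drug effect of 1.27 at day 8 and -0.63 at day 3. CHORDC1, a partner of the chaperone HSP90, had 0.86 at day 8 and -0.91 at day 3. Of these 10 genes, TMEM158 was the 1 that changed upward in the PLX4720 arm past the threshold.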

How the results depend on the processing

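Of the genes called both in the reported analysis and under an alternative, none changed sign. Both calls came from the same arrays, so this was largely fixed by the selection. With the dimmest probe of each gene GRHL1 had a difference of 0.65 (adjusted p = 0.19) and LAMB3 one of 0.35 (adjusted p = 0.65), where the probes used gave -1.56 and -1.10. The counts below moved by more than 1.5 times. With no background correction there were 1804 differences in all, 828 positive, 976 negative, 698 changed genes in the PLX4720 arm, 1492 in the DMSO arm alone, 65 in the PLX4720 arm alone, 207 in both arms, 40 in neither arm and 81 turned upward. With a normexp offset of 50 there were 676 positive, 563 changed genes in the PLX4720 arm, 60 in the PLX4720 arm alone, 151 in both arms and 58 turned upward. With median scaling there were 296 positive and 19 turned upward. With the authors' deposited processed values there were 1841 differences in all, 830 positive, 1011 negative, 718 changed genes in the PLX4720 arm, 1520 in the DMSO arm alone, 66 in the PLX4720 arm alone, 217 in both arms, 38 in neither arm, 146 turned downward and 82 turned upward. With no filter on dim probes (20044 genes) there were 279 positive, 46 in both arms, 13 in neither arm and 21 turned upward. With detection on all 8 arrays of days 3 and 8 (9315 genes) there were 125 in both arms and 62 turned upward. With the 8 arrays of days 3 and 8 alone there were 176 changed genes in the PLX4720 arm. With the dimmest probe of each gene there were 647 differences in all, 249 positive, 398 negative, 186 changed genes in the PLX4720 arm, 577 in the DMSO arm alone, 33 in both arms, 13 in neither arm, 59 turned downward and 21 turned upward. Leaving out single arrays gave 440 to 1281 differences, 123 to 597 positive and 310 to 684 negative, with 38 to 345 changed genes in the PLX4720 arm and 2621 to 4160 in the DMSO arm. The classes ranged over 12 to 37 for the PLX4720 arm alone, 373 to 1144 for the DMSO arm alone, 8 to 74 for both and 7 to 26 for neither, with 34 to 91 turned downward and 6 to 54 upward. The cause of these moves was not tested. The fits without background correction and with the larger offset shrink changes of dim probes, and the counts under other filters rest on other numbers of genes. Same-numbered arrays of different groups deviated together at correlations of 0.02 to 0.11, so the replicate numbers were not taken as pairs; with the replicate block there were 1155 differences. Of 97 named genes past the threshold 47 kept their call under every alternative. With 2 arrays per group, and signals near background on many probes, small differences cannot be resolved, and a missed call does not show equality.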

Other observations

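Families picked by symbol after the values were seen gave the following counts, to be read against 3.54% positive and 4.92% negative differences over all genes. Of 35 tested core and linker histone genes 7 (20%) had a negative treatment-by-time difference and none a positive one. H2BC5, a histone H2B gene, read 10.13 and 10.45 in PLX4720 day 8 cultures, 10.33 and 10.16 in DMSO day 8 cultures, 10.34 and 10.42 in PLX4720 day 3 cultures, and 8.06 and 7.97 in DMSO day 3 cultures. The DMSO day 3 arrays stood alone, and the difference was -2.32 ± 0.21 (limma, adjusted p = 0.00043). H2AC19 had a difference of -2.26 ± 0.31 (adjusted p = 0.0032), and histone genes have near-identical copies.

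Of 118 tested small nucleolar RNA genes 7 (5.93%) had a positive and 3 (2.54%) a negative difference, near the shares over all genes. SNORD96A read 5.41 and 5.48 in PLX4720 day 8 cultures, 5.17 and 4.67 in DMSO day 8 cultures, 5.34 and 5.21 in PLX4720 day 3 cultures, and 6.88 and 6.63 in DMSO day 3 cultures, a difference of 2.01 ± 0.26 (adjusted p = 0.0025). SNORD3D, a copy of the U3 small nucleolar RNA, had a difference of -2.16 ± 0.38 (adjusted p = 0.0095). Of 63 heat shock protein and cochaperone genes 5 (7.94%) had a positive and 2 (3.17%) a negative difference.

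ATP6V1B1, a subunit of the proton pump of acidic compartments, read 12.46 and 12.62 in PLX4720 day 8 cultures, 11.01 and 10.93 in DMSO day 8 cultures, 11.996 and 12.09 in PLX4720 day 3 cultures, and 8.46 and 8.66 in DMSO day 3 cultures. It was higher with PLX4720 on both days, and the difference was -1.92 ± 0.29 (adjusted p = 0.0056).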
